A study of Mus musculus with 9 samples.

Results

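The 10 genes described here encode the enzymes of cytosolic fatty acid synthesis and their regulators, and were taken by gene symbol, under a rule that uses no measured value but was written with earlier results of these data known: Acly, Acaca, Acacb, Fasn, Thrsp, Elovl6, Scd1, Scd2, Srebf1 and Me1. All 10 were found among the 55704 genes of the expression table, and all 10 were among the 20207 genes that passed the filter on low values and were tested. The table holds RNA-seq of neural stem cells (NSCs) of the subventricular zone (SVZ), a germinal niche of the adult mouse brain, in 3 groups of 3 libraries. The question of the design was how NSCs under BMP4, with or without bFGF, differ from NSCs kept dividing.

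The NSCs came from adult C57BL/6 mice aged 8 to 9 weeks, with 2 female and 2 male mice pooled per isolation, and had been passaged as floating cultures with bFGF and EGF before they were plated on a coated dish. The bFGF/EGF group was collected 16 to 18 hours after plating (day 0), still in 20 ng/mL bFGF and 20 ng/mL EGF. For the bFGF/BMP4 group EGF was then exchanged for 20 ng/mL BMP4 while 20 ng/mL bFGF stayed, and for the BMP4 group both factors were exchanged for 20 ng/mL BMP4 alone; both were collected at day 6. Day of culture and medium therefore cannot be told apart when a BMP4 group is set against bFGF/EGF, and the labels also name B27 without vitamin A for the proliferation medium and plain B27 for the other media. The submitters call the 3 libraries of a group biological replicates, but do not say whether each came from its own isolation. The p-values therefore weigh a group difference against the spread between these libraries. Whether the differences hold for other isolations was not tested. The 3 comparisons share libraries and are not independent of each other.

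Fatty acid synthesis in the cytosol starts from citrate, which ATP citrate lyase splits to acetyl-CoA; acetyl-CoA carboxylase turns acetyl-CoA into malonyl-CoA, and fatty acid synthase joins malonyl units, at the expense of NADPH, to palmitate. Elongases and stearoyl-CoA desaturases then lengthen the product and introduce the first double bond, and the transcription factor SREBP-1 drives many genes of the route. In adult NSCs the pathway is known for its tie to proliferation, since dividing stem and progenitor cells in the neurogenic niches depend on Fasn.

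The promoters of 4 of these genes are shown because the results turn on them: Fasn and Thrsp, which followed different courses, Acly, which was more than 2-fold below its bFGF/EGF level after 6 days with BMP4, and Srebf1, the regulator. Each is the run of 250 bases before a RefSeq transcription start on GRCm38.p6, a build other than the one the reads were aligned to, written in the direction of transcription, with matches to the CCAAT box (CCAAT, or ATTGG on the other strand) and the GC box (GGGCGG, or CCGCCC on the other strand) in capitals. Windows of 8 of the 10 genes were in the RefSeq table. They lie at chr11:120824548-120824797 (Fasn, minus strand), chr7:97417551-97417800 (Thrsp, minus strand), chr11:100528001-100528250 (Acly, minus strand) and chr11:60210472-60210721 (Srebf1, minus strand, the third of its 3 windows and the one with matches to both motifs).
Fasn: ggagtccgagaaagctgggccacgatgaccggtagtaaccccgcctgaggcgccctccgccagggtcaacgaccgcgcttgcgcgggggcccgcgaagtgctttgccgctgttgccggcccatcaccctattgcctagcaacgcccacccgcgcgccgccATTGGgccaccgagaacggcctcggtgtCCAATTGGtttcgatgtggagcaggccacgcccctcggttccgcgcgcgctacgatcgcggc
Thrsp: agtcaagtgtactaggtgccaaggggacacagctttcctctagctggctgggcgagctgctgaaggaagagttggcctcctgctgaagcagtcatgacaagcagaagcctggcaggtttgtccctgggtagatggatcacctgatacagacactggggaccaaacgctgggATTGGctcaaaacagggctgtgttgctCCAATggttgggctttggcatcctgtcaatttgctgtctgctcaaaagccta
Acly: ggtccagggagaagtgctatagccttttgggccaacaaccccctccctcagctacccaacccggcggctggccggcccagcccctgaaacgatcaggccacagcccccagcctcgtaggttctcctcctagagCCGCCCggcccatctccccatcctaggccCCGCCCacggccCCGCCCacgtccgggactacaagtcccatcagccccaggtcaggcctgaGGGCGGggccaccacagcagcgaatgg
Srebf1: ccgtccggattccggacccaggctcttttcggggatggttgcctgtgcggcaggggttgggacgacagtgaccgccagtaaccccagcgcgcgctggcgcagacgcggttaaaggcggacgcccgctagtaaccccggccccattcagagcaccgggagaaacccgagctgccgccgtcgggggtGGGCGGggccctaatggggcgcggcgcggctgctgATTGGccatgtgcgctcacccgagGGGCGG
The Fasn window held 3 CCAAT box matches, 90, 62 and 59 bases before the start, of which the latter 2 overlap. Thrsp held 2, at 79 and 52 bases. The Acly window held no CCAAT box match and 4 GC box matches, at 117, 88, 76 and 27 bases. The Srebf1 window shown held 1 CCAAT box match at 30 bases and 2 GC box matches at 65 and 6 bases. Of its windows not shown, the first held only 1 CCAAT box match and the second only 2 GC box matches. Among the genes not shown, the Acaca and Elovl6 windows held no match to either motif. The Acacb window held 1 CCAAT box match, and the Me1 windows held 3 GC box matches and 1 CCAAT box match. Of 32851 mouse promoter windows of this length, 33.9% held a CCAAT box match and 32.7% a GC box match. Neither the E-box CACGTG, in 6.02% of all windows, nor the sterol response element TCACNCCAC, in 1.05%, was matched in the 11 windows of the 8 genes, searched on both strands; such matches are letters in a window and were not measured as binding.

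Levels are given as FPKM (fragments per kilobase of transcript, scaled to the mapped fragments of a library), which is per length, so that levels can be set side by side between genes. Between libraries it depends on the scaling: the FPKM of a library summed to 256230 in bFGF/EGF replicate 3 and to 326302 in BMP4 replicate 2, the lowest and highest, and the calls of the 10 genes that TPM scaling changed are named with the gene. The 9 libraries held 15895636 to 17424346 fragments on genes, and the correlation of log2 levels over all genes was 0.95 to 0.964 between libraries of a group and 0.81 to 0.915 between libraries of different groups. The NSC marker Sox2 was at 121 to 202 FPKM in all 9 libraries. Nes (nestin) went from 145-157 FPKM in bFGF/EGF to 2.96-3.94 in bFGF/BMP4 and 10.7-20.7 in BMP4. Slc1a3 had group means of 73.6, 130 and 113 FPKM in that order, and Vim of 677, 167 and 892. Fabp7 was at 655, 272 and 484 FPKM, and Prom1 at 0.660, 0.151 and 2.49. The 6 NSC markers thus did not share an order. The proliferation marker Mki67 was at 19.8-51.2, 7.22-13.6 and 1.55-1.82 FPKM in bFGF/EGF, bFGF/BMP4 and BMP4, and the astrocyte filament gene Gfap at 0.0600-0.134, 16.8-21.5 and 2181-3038.

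Across the groups the pathway did not move as 1 block. The desaturase genes Scd1 and Scd2 and the regulator Srebf1 had their lowest mean level in bFGF/EGF and their highest in BMP4. Fasn and Acaca were near the same level in bFGF/EGF and bFGF/BMP4 and lower in BMP4. Acly and Thrsp were below their bFGF/EGF level in both BMP4 groups, and Elovl6 stepped down from bFGF/EGF to bFGF/BMP4 to BMP4. Differences are given below as log2 fold changes with their standard error (SE), on the scale log2(FPKM + 0.1), from limma fitted to all 20207 genes with Benjamini-Hochberg adjustment; a gene passed the test at an adjusted p of at most 0.05, and was called when it also changed at least 2-fold.

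**Figure D1:**
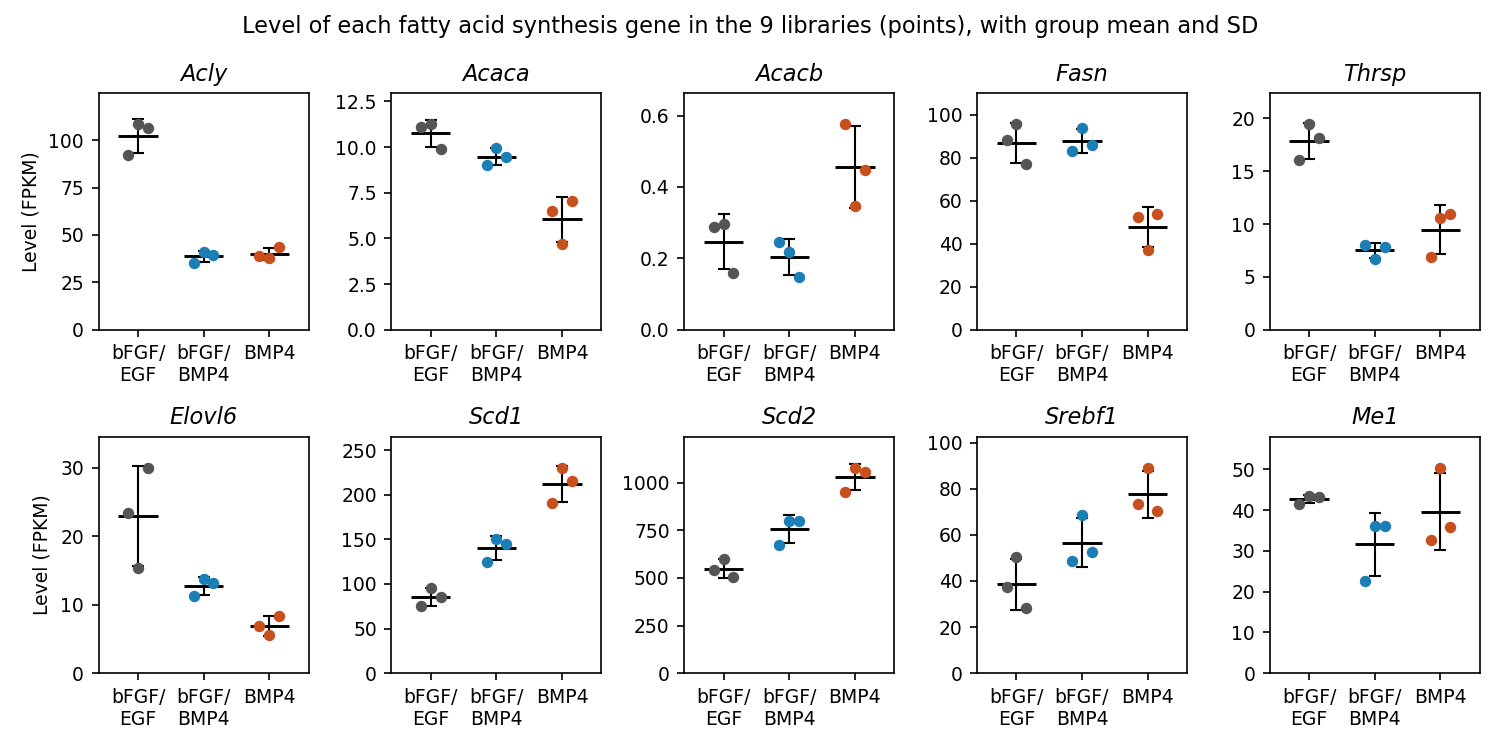
Level in FPKM (vertical axes from 0, a scale per gene) of the 10 genes in the 3 libraries of each group; points are libraries, horizontal bars group means and error bars the SD (n = 3). Scd2 is the highest gene, at 504 to 1078 FPKM, and Acacb the lowest, at 0.148 to 0.575 FPKM; the Fasn points of bFGF/EGF and bFGF/BMP4 overlap and lie above all 3 of BMP4.

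Acly encodes ATP citrate lyase, which makes the cytosolic acetyl-CoA for the route (GRCm39 chr11:100367165-100440756, minus strand). Its level was 92.2, 108 and 107 FPKM in the bFGF/EGF libraries, 35.4, 41.0 and 39.7 under bFGF/BMP4, and 38.8, 37.6 and 43.5 under BMP4. All 6 libraries of the BMP4 groups lay below all 3 bFGF/EGF libraries, while the BMP4 groups overlapped each other. Acly fell 2.64-fold in bFGF/BMP4 (log2 fold change -1.40, SE 0.12, limma adjusted p = 7.93e-06) and 2.56-fold in BMP4 (-1.35, SE 0.12, limma adjusted p = 6.38e-06). BMP4 and bFGF/BMP4 did not differ beyond their spread, with a log2 difference of 0.05 and a 95% interval of -0.21 to 0.31 (limma adjusted p = 0.833).

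Acaca and Acacb encode the acetyl-CoA carboxylases: the Acaca product works in the cytosol and supplies malonyl-CoA for synthesis, and that of Acacb sits at mitochondria, where malonyl-CoA restrains fatty acid oxidation. Acaca (GRCm39 chr11:84020476-84292477, plus strand) was at 11.1, 11.2 and 9.91 FPKM in bFGF/EGF, 9.00, 9.94 and 9.45 under bFGF/BMP4, and 6.47, 4.67 and 7.03 under BMP4. The 3 BMP4 libraries were below the 6 others, and bFGF/BMP4 replicate 2 reached into the bFGF/EGF range. Acaca fell 1.79-fold from bFGF/EGF to BMP4 (log2 fold change -0.84, SE 0.15, limma adjusted p = 0.00113) and 1.57-fold from bFGF/BMP4 to BMP4 (-0.65, SE 0.15, limma adjusted p = 0.0129), the latter with an adjusted p of 0.0527 without bFGF/BMP4 replicate 2. Between bFGF/BMP4 and bFGF/EGF the log2 difference was -0.18, with a 95% interval of -0.53 to 0.16 (limma adjusted p = 0.364).

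Acacb (GRCm39 chr5:114284307-114388822, plus strand) was near the lower limit of the tested range. It was at 0.287, 0.295 and 0.159 FPKM in bFGF/EGF, 0.246, 0.217 and 0.148 under bFGF/BMP4, and 0.575, 0.346 and 0.447 under BMP4, from 21 to 90 fragments a library. The BMP4 libraries lay above the other 6, but no Acacb difference passed the limma test, the nearest being 0.87 on the log2 scale for BMP4 against bFGF/BMP4 (SE 0.33, limma adjusted p = 0.0953). With limma-voom on the fragment numbers recovered from the FPKM values that difference was 1.17 (adjusted p = 0.0223) and the difference of BMP4 from bFGF/EGF 0.80 (adjusted p = 0.0474). Acaca made up 97.8% ± 0.556 (SD, n = 3) of the summed FPKM of both genes in bFGF/EGF, 97.9% ± 0.555 under bFGF/BMP4 and 93.0% ± 1.10 under BMP4. The share in BMP4 differed by -4.80 percentage points from bFGF/EGF and by -4.90 from bFGF/BMP4 with no overlap, each at an exact two-sided permutation p of 0.1, the smallest that 3 against 3 libraries allow, and 0.133 after adjustment over the 12 comparisons of such shares.

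Fasn encodes fatty acid synthase, the multifunctional enzyme that makes palmitate (GRCm39 chr11:120696672-120715995, minus strand). Its level was 88.3, 95.5 and 77.0 FPKM in bFGF/EGF, 82.9, 93.8 and 85.9 under bFGF/BMP4, and 52.4, 37.2 and 53.8 under BMP4. The first 2 groups covered the same range, and the 3 BMP4 libraries were below both, replicate 2 lowest. Fasn in BMP4 was at 54.5% of its bFGF/EGF level (log2 fold change -0.88, SE 0.16, limma adjusted p = 0.000926) and at 54.0% of its bFGF/BMP4 level (-0.89, SE 0.16, limma adjusted p = 0.00257). Without BMP4 replicate 2 these log2 fold changes were -0.70 and -0.72 and still passed the test. For bFGF/BMP4 against bFGF/EGF the log2 difference was 0.01 with a 95% interval of -0.34 to 0.36 (limma adjusted p = 0.96). In RNA from a whole dish, fewer cells that express a gene and less of its RNA per cell cannot be told apart. Fasn was thus at its bFGF/EGF level in bFGF/BMP4, where the summed level of 5 proliferation markers was 63.5-101 FPKM against 224-439 in bFGF/EGF. It was lower in BMP4, where that sum was 35.3-49.0. Most of the sum in BMP4 was Pcna, at 27.9-42.1 FPKM against 33.3-52.7 in bFGF/BMP4 (limma adjusted p = 0.25). From bFGF/BMP4 to BMP4 Mki67, Top2a, Cdk1 and Ccnb1 fell 4.85- to 6.31-fold (limma adjusted p from 0.000227 to 0.000675). The part of proliferation in the levels of the 10 genes was not tested.

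Thrsp, or Spot 14, encodes a small acidic protein of lipogenic tissues, known to respond to thyroid hormone and to mark slowly dividing stem cells of the adult hippocampus (GRCm39 chr7:97062139-97066937, minus strand). It was at 16.0, 19.4 and 18.1 FPKM in bFGF/EGF, 8.02, 6.67 and 7.83 under bFGF/BMP4, and 6.84, 10.6 and 11.0 under BMP4. All 6 libraries of the BMP4 groups were below the bFGF/EGF libraries, and these groups overlapped through BMP4 replicate 1. Thrsp fell 2.36-fold in bFGF/BMP4 (log2 fold change -1.24, SE 0.18, limma adjusted p = 0.000328) and 1.91-fold in BMP4 (-0.93, SE 0.18, limma adjusted p = 0.00159). The latter difference lay close to the 2-fold threshold and passed it with TPM scaling (-1.02), with limma-voom (-1.03) and without bFGF/EGF replicate 1 (-1.01), BMP4 replicate 2 (-1.03) or BMP4 replicate 3 (-1.06). From bFGF/BMP4 to BMP4 the log2 difference was 0.31 with a 95% interval of -0.10 to 0.71 (limma adjusted p = 0.293), and 0.52 without BMP4 replicate 1 (limma adjusted p = 0.0349).

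Mid1ip1, the paralog of Thrsp whose product promotes the polymerisation of acetyl-CoA carboxylase, went the other way. It was at 48.2, 58.0 and 46.5 FPKM in bFGF/EGF, 80.8, 75.3 and 73.9 under bFGF/BMP4, and 98.6, 125 and 95.6 under BMP4. No 2 groups overlapped, and Mid1ip1 rose in each comparison, by 0.60 (adjusted p = 0.00492), 1.06 (adjusted p = 0.00011) and 0.46 (adjusted p = 0.0385) on the log2 scale (limma) for bFGF/BMP4 against bFGF/EGF, BMP4 against bFGF/EGF and BMP4 against bFGF/BMP4. The share of Thrsp in the summed FPKM of the pair was 26.0% ± 1.77 (SD, n = 3) in bFGF/EGF, 8.91% ± 0.726 under bFGF/BMP4 and 8.22% ± 1.94 under BMP4, with both BMP4 groups below bFGF/EGF without overlap (exact permutation p = 0.1 each, adjusted 0.133).

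Fasn and Thrsp, though both of the lipogenic program, had a Pearson correlation of log2 level of only 0.19 over the 9 libraries. Among 11212 protein-coding genes with a mean of at least 1 FPKM, the 5 whose levels ran most closely with Fasn were Pknox2 (r = 0.98), Acaca (0.97), Zdhhc5 (0.97), Gpr89 (0.97) and Nav3 (0.97). For Thrsp they were Rap2b (r = 0.98), Ric8a (0.98), Psmg3 (0.98), Prpsap2 (0.97) and Ttc27 (0.97). Of the genes described here with a mean of at least 1 FPKM, which leaves out Acacb, Acly ran most closely with Thrsp (r = 0.92). These correlations rest on 9 libraries in 3 groups and are given as descriptions.

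Elovl6 encodes the elongase that lengthens palmitate to stearate (GRCm39 chr3:129326004-129432144, plus strand). It was at 23.5, 15.4 and 30.0 FPKM in bFGF/EGF, 11.4, 13.8 and 13.2 under bFGF/BMP4, and 6.84, 5.53 and 8.42 under BMP4. No 2 groups overlapped, although bFGF/EGF was widely spread. Elovl6 fell 3.21-fold from bFGF/EGF to BMP4 (log2 fold change -1.68, SE 0.23, limma adjusted p = 0.000178). It fell 1.74-fold from bFGF/EGF to bFGF/BMP4 (-0.80, SE 0.23, limma adjusted p = 0.0177) and 1.85-fold from bFGF/BMP4 to BMP4 (-0.89, SE 0.23, limma adjusted p = 0.0224). The first of these smaller steps was 2-fold without bFGF/EGF replicate 2 (-1.06, adjusted p = 0.00227) and lost the test without bFGF/EGF replicate 1 (adjusted p = 0.0555), bFGF/EGF replicate 3 (0.0614) or bFGF/BMP4 replicate 1 (0.0606). The second lost it without bFGF/BMP4 replicate 2 (0.0779) or 3 (0.0705) or without BMP4 replicate 1 (0.0624) or 2 (0.0809).

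Scd1 and Scd2 encode stearoyl-CoA desaturases, which turn stearate into oleate; Scd2 is the main form in mouse brain. Scd1 (GRCm39 chr19:44382894-44399154, minus strand) was at 75.1, 95.5 and 85.6 FPKM in bFGF/EGF, 125, 150 and 145 under bFGF/BMP4, and 191, 230 and 216 under BMP4. The 3 groups were fully apart, in that order. Scd1 rose 1.64-fold from bFGF/EGF to bFGF/BMP4 (log2 fold change 0.71, SE 0.14, limma adjusted p = 0.00189), 2.49-fold from bFGF/EGF to BMP4 (1.31, SE 0.14, limma adjusted p = 2.77e-05) and 1.52-fold from bFGF/BMP4 to BMP4 (0.60, SE 0.14, limma adjusted p = 0.0119).

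Scd2, the neighbouring gene (GRCm39 chr19:44281613-44295303, plus strand), was at 540, 602 and 504 FPKM in bFGF/EGF, 672, 798 and 800 under bFGF/BMP4, and 951, 1078 and 1056 under BMP4. Its groups were also apart in the same order. Scd2 rose 1.88-fold from bFGF/EGF to BMP4 (log2 fold change 0.91, SE 0.17, limma adjusted p = 0.00135). The rise from bFGF/EGF to bFGF/BMP4 was 1.38-fold (0.46, SE 0.17, limma adjusted p = 0.0489) and lost the test in 12 of 17 alternatives, among them 7 of the 9 that leave out a library, all but those without bFGF/EGF replicate 2 or BMP4 replicate 2. From bFGF/BMP4 to BMP4 the log2 difference was 0.45 (SE 0.17, limma adjusted p = 0.103), with an adjusted p of 0.00495 by limma-voom and 0.0302 with TPM scaling. Scd1 was 13.5% ± 1.16 (SD, n = 3) of the summed FPKM of both genes in bFGF/EGF, 15.6% ± 0.250 under bFGF/BMP4 and 17.1% ± 0.462 under BMP4, with no overlap in any comparison (exact permutation p = 0.1 each, adjusted 0.133). How fragments that match both of these similar genes were counted is not given in the sources used here.

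Scd2 alone made up much of the RNA of the 10 genes: 57.3% ± 1.31 (SD, n = 3) of their summed FPKM in bFGF/EGF, 66.3% ± 0.877 under bFGF/BMP4 and 70.0% ± 0.252 under BMP4. The summed level was 957 ± 74.2 FPKM (SD, n = 3) in bFGF/EGF, 1141 ± 110 under bFGF/BMP4 and 1468 ± 96.8 under BMP4. The sum thus had its highest mean in the group in which Fasn, Acaca and Elovl6 had their lowest.

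Srebf1 encodes SREBP-1, the transcription factor of lipogenic genes (GRCm39 chr11:60089913-60113407, minus strand). It was at 37.5, 50.2 and 28.2 FPKM in bFGF/EGF, 48.7, 68.6 and 52.6 under bFGF/BMP4, and 73.3, 89.1 and 70.3 under BMP4. The BMP4 libraries were above the other 6, and bFGF/BMP4 overlapped bFGF/EGF, since replicate 1 of the former lay below replicate 2 of the latter. Srebf1 rose 2.05-fold from bFGF/EGF to BMP4 (log2 fold change 1.04, SE 0.21, limma adjusted p = 0.00213), a difference that stayed past the test but came under 2-fold with TPM scaling (0.95), with median-ratio scaling (0.99), with limma-voom (0.94) and without bFGF/EGF replicate 3 (0.83) or BMP4 replicate 2 (0.93). It rose 1.49-fold from bFGF/EGF to bFGF/BMP4 (0.57, SE 0.21, limma adjusted p = 0.0467), which lost the test in 9 of 17 alternatives, 6 of them leaving out bFGF/EGF replicate 1 or 3, bFGF/BMP4 replicate 2 or 3, or BMP4 replicate 1 or 3. From bFGF/BMP4 to BMP4 the log2 difference was 0.46 with a 95% interval of -0.01 to 0.93 (limma adjusted p = 0.167). Srebf2, which encodes the sterol-directed SREBP-2, was at 79.8 ± 8.59, 69.1 ± 4.75 and 78.6 ± 9.58 FPKM (SD, n = 3) in bFGF/EGF, bFGF/BMP4 and BMP4, and no difference of it passed the test. Srebf1 made up 32.2% ± 3.95 of the summed FPKM of the pair in bFGF/EGF, 44.8% ± 4.35 under bFGF/BMP4 and 49.6% ± 6.20 under BMP4, both BMP4 groups above bFGF/EGF without overlap (exact permutation p = 0.1 each, adjusted 0.133). The values of Srebf1 do not separate its transcript forms, SREBP-1a and SREBP-1c.

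Me1 encodes cytosolic malic enzyme, a source of NADPH for the synthase (GRCm39 chr9:86462646-86578104, minus strand). It was at 41.6, 43.5 and 43.2 FPKM in bFGF/EGF, 22.6, 36.2 and 36.0 under bFGF/BMP4, and 32.7, 50.4 and 35.8 under BMP4. The bFGF/BMP4 libraries were below bFGF/EGF, replicate 1 far more so than the others, and BMP4 spanned both groups. No difference of Me1 passed the test; the largest was -0.47 on the log2 scale for bFGF/BMP4 against bFGF/EGF (SE 0.21, limma adjusted p = 0.0891), with an adjusted p of 0.0486 under TPM scaling and 0.0148 by limma-voom. The annotation places 2146 exon bases of Me1 over exons of Rwdd2a on the other strand, at a mean of 2.19 FPKM against 38.0 for Me1, and whether fragments were counted by strand is not given in the sources used here.

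**Figure D2:**
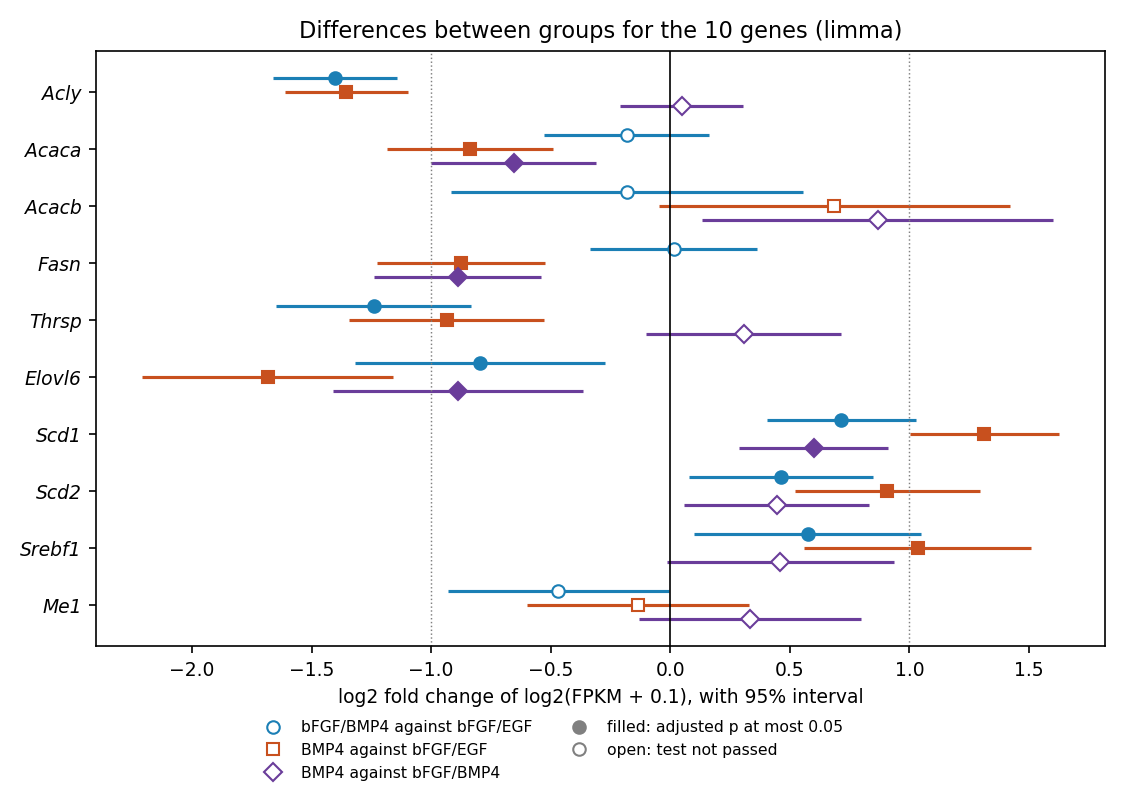
Log2 fold change on the scale log2(FPKM + 0.1) (horizontal axis) of the 10 genes in the 3 comparisons, with 95% intervals from limma (n = 3 libraries a group); filled symbols passed the test at an adjusted p of at most 0.05 and dotted lines mark 2-fold. Acly lies beyond 2-fold in both comparisons with bFGF/EGF and at 0.05 between the BMP4 groups, whereas Fasn lies at 0.01 in bFGF/BMP4 against bFGF/EGF and at -0.88 and -0.89 in the comparisons that involve BMP4.

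In bFGF/BMP4 against bFGF/EGF, which asks how NSCs after 6 days with both factors differ from dividing NSCs, Scd1, Scd2 and Srebf1 rose and Acly, Thrsp and Elovl6 fell. So 6 of the 10 genes passed the test, where 48.6% of all genes did (25.0% higher, 23.6% lower). Called at 2-fold were 2 of 10, Acly and Thrsp, both lower, where 30.6% of all genes were called (14.1% lower); without bFGF/EGF replicate 2 Elovl6 was called as well, 3 of 10. The groups did not overlap for 6 of 10 genes, 2 higher and 4 lower, against 57.7% of all genes (30.2% higher, 27.5% lower). The median log2 difference was -0.18 over the 10 genes and 0.06 over all genes tested.

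In BMP4 against bFGF/EGF, Scd1, Scd2 and Srebf1 rose and Acly, Thrsp, Acaca, Fasn and Elovl6 fell, which makes 8 of 10, where 54.9% of all genes passed the test (29.6% higher, 25.3% lower). Called were 4 of 10, Scd1 and Srebf1 higher and Acly and Elovl6 lower, where 36.6% of all genes were called (21.3% higher, 15.4% lower). The groups did not overlap for 9 of 10, all but Me1, with 4 higher and 5 lower, against 60.4% of all genes (32.6% higher, 27.8% lower). The median log2 difference was -0.49 over the 10 genes and 0.10 over all.

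In BMP4 against bFGF/BMP4, which asks what bFGF in addition to BMP4 changes, Fasn, Acaca and Elovl6 fell and Scd1 rose, 4 of 10 where 21.1% of all genes passed the test (12.2% higher, 8.89% lower). None of the 10 was called at 2-fold by limma, where 13.5% of all genes were (8.41% higher, 5.14% lower). With limma-voom 1 of the 10 was called, Acacb, where 2989 of all 20207 genes tested were. The groups did not overlap for 7 of 10, 4 higher and 3 lower, against 38.7% of all genes (20.5% higher, 18.3% lower). The median log2 difference was 0.32 over the 10 genes and 0.00 over all, so that the median and the direction of most genes that passed had opposite signs.

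Levels relative to Fasn within each library do not depend on how libraries are scaled; these ratios were chosen after the values were seen and carry no test. Scd1 was at 0.987 ± 0.131 of Fasn (SD, n = 3) in bFGF/EGF, 1.60 ± 0.0934 under bFGF/BMP4 and 4.61 ± 1.38 under BMP4. Scd2 was at 6.32 ± 0.218, 8.64 ± 0.612 and 22.2 ± 5.86 times Fasn, and Srebf1 at 0.439 ± 0.0811, 0.644 ± 0.0769 and 1.70 ± 0.602. In these 3 ratios no groups overlapped. Acly was at 1.19 ± 0.176 of Fasn in bFGF/EGF, 0.442 ± 0.0182 under bFGF/BMP4 and 0.853 ± 0.141 under BMP4, and Thrsp at 0.207 ± 0.0273, 0.0863 ± 0.0134 and 0.207 ± 0.0772. The ratios of Acly and Thrsp were thus lowest in bFGF/BMP4, where both genes were low and Fasn was not. Elovl6 was at 0.272 ± 0.114, 0.146 ± 0.00815 and 0.145 ± 0.0134 of Fasn, and the BMP4 groups overlapped.

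**Figure D3:**
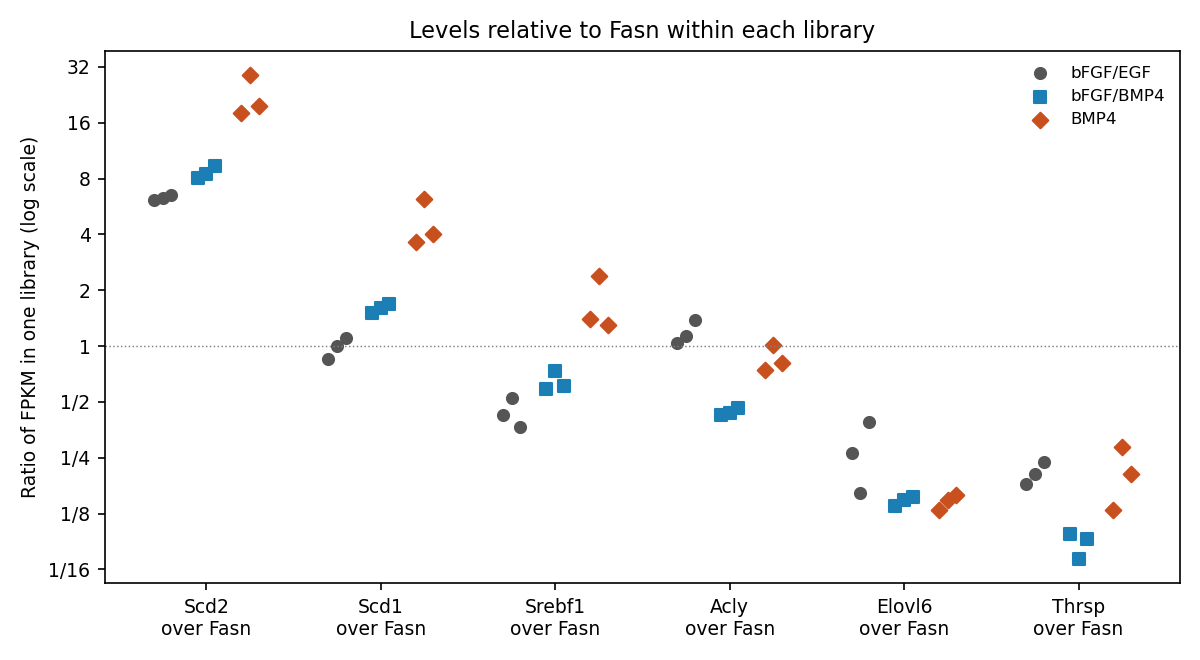
Ratio of the FPKM of a gene to that of Fasn in the same library (vertical axis, log scale), 3 libraries a group. Scd2, Scd1 and Srebf1 step up from bFGF/EGF to bFGF/BMP4 to BMP4, with Scd2 at 6.11-6.55, 8.11-9.31 and 18.1-29.0 times Fasn, whereas Acly and Thrsp have their lowest ratios in bFGF/BMP4.

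The genes that supply the route with acetyl-CoA and citrate gave 5 higher and 2 lower of 10 past the test in bFGF/BMP4 against bFGF/EGF, 6 and 2 in BMP4 against bFGF/EGF, and 0 and 1 in BMP4 against bFGF/BMP4, with median log2 differences of 0.36, 0.43 and 0.08. Of all genes, 25.0% rose and 23.6% fell in the first of these comparisons, 29.6% and 25.3% in the second, and 12.2% and 8.89% in the third. Mpc2, a subunit of the mitochondrial pyruvate carrier, was at 5.04 ± 0.471 FPKM (SD, n = 3) in bFGF/EGF, 11.3 ± 1.62 under bFGF/BMP4 and 12.5 ± 2.12 under BMP4, and Pdha1, a subunit of pyruvate dehydrogenase, at 55.4 ± 2.29, 115 ± 3.45 and 115 ± 8.80. Both rose in both comparisons with bFGF/EGF (limma adjusted p from 1.81e-05 to 0.0002). Slc25a1, the carrier that brings citrate to the cytosol, fell in both, by 1.10 (limma adjusted p = 0.000742) and 0.63 (limma adjusted p = 0.0144) on the log2 scale. Acss2 of the same list fell as well, by 1.10 (limma adjusted p = 0.00153) and 0.77 (limma adjusted p = 0.0100). Both genes were named after their values were seen.

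Of 7 genes of cytosolic NADPH supply, 0 rose and 6 fell in bFGF/BMP4 against bFGF/EGF, 0 rose and 1 fell in BMP4 against bFGF/EGF, and 3 rose and 0 fell in BMP4 against bFGF/BMP4, with median log2 differences of -0.65, -0.21 and 0.43, where 23.6%, 25.3% and 8.89% of all genes fell and 25.0%, 29.6% and 12.2% rose. Aldh1l1, a folate enzyme that yields NADPH and is also known as an astrocyte marker, was the only gene of the list called, in all 3 comparisons. It was at 132, 162 and 112 FPKM in bFGF/EGF, 24.8, 23.6 and 24.3 under bFGF/BMP4, and 58.3, 64.7 and 51.3 under BMP4. Its log2 fold changes were -2.46, -1.21 and 1.25 in the same order (limma adjusted p = 9.31e-07, 6.65e-05 and 0.000213).

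Of 17 other elongation and desaturation enzymes, 9 rose and 4 fell in bFGF/BMP4 against bFGF/EGF, 11 rose and 5 fell in BMP4 against bFGF/EGF, and 6 rose and 6 fell in BMP4 against bFGF/BMP4, with median log2 differences of 0.87, 0.73 and 0.16, where 48.6%, 54.9% and 21.1% of all genes passed the test. Scd4, a further desaturase, was at 0.0624, 0.185 and 0.135 FPKM in bFGF/EGF (4 to 11 fragments a library), 0.248, 0.830 and 0.361 in bFGF/BMP4, and 4.22, 5.55 and 3.27 in BMP4, rising by 4.29 from bFGF/EGF to BMP4 on the log2 scale (limma adjusted p = 1.08e-05). Hacd4, a dehydratase of very long chain elongation, was at 0.184 ± 0.0435 FPKM (SD, n = 3) in bFGF/EGF, 0.969 ± 0.208 under bFGF/BMP4 and 4.81 ± 0.196 under BMP4. Elovl7 was at 0.555 ± 0.277, 4.21 ± 0.295 and 5.41 ± 0.703. Fads3, a member of the fatty acid desaturase family, was at 4.34 ± 0.901, 0.522 ± 0.209 and 3.77 ± 0.667, with all 3 bFGF/BMP4 libraries below the other 6 and log2 fold changes of -2.88 and 2.69 against bFGF/EGF and in BMP4 against bFGF/BMP4 (limma adjusted p = 2.74e-05 and 0.000133).

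Of 9 tested genes that regulate acetyl-CoA carboxylase and malonyl-CoA, 5 rose and 0 fell in bFGF/BMP4 against bFGF/EGF, 4 rose and 0 fell in BMP4 against bFGF/EGF, and 2 rose and 1 fell in BMP4 against bFGF/BMP4; Prkag3 was also listed but under the filter. Of all genes, 48.6%, 54.9% and 21.1% passed the test, so that the first 2 counts, taken in either direction, lie near the share of all genes. By direction, 25.0%, 29.6% and 12.2% of all genes rose and 23.6%, 25.3% and 8.89% fell. Prkag2, a regulatory subunit of AMP-activated protein kinase, whose target is acetyl-CoA carboxylase, was at 6.74, 7.58 and 6.87 FPKM in bFGF/EGF, 35.4, 33.6 and 34.4 under bFGF/BMP4, and 166, 166 and 159 under BMP4. Its log2 fold changes were 2.27, 4.52 and 2.25 (limma adjusted p = 1.06e-07, 1.59e-09 and 1.18e-06), against list medians of 0.55, 0.27 and -0.04.

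Of 12 tested genes of SREBP, LXR and ChREBP control, 4 rose and 4 fell in bFGF/BMP4 against bFGF/EGF, 3 rose and 5 fell in BMP4 against bFGF/EGF, and 1 rose and 2 fell in BMP4 against bFGF/BMP4, with medians of 0.13, -0.08 and 0.00; Mlxipl, the gene of ChREBP, was under the filter. The share of all genes past the test was 48.6%, 54.9% and 21.1%. Insig2, whose product retains SREBP in the endoplasmic reticulum, was at 5.43 ± 0.340 FPKM (SD, n = 3) in bFGF/EGF, 16.4 ± 2.17 under bFGF/BMP4 and 25.0 ± 3.75 under BMP4, and rose by 1.57 and 2.18 on the log2 scale against bFGF/EGF (limma adjusted p = 1.42e-05 and 1.21e-06). Nr1h3, which encodes the oxysterol receptor LXR alpha, was at 0.472 ± 0.201, 2.87 ± 0.522 and 2.45 ± 0.465, and rose by 2.42 and 2.20 (limma adjusted p = 5.77e-05 and 8.11e-05). Rxra, the gene of a partner receptor of LXR, was at 7.83 ± 1.31, 12.8 ± 1.42 and 5.10 ± 0.483 and fell by 1.31 from bFGF/BMP4 to BMP4 (limma adjusted p = 0.000189).

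**Figure D4:**
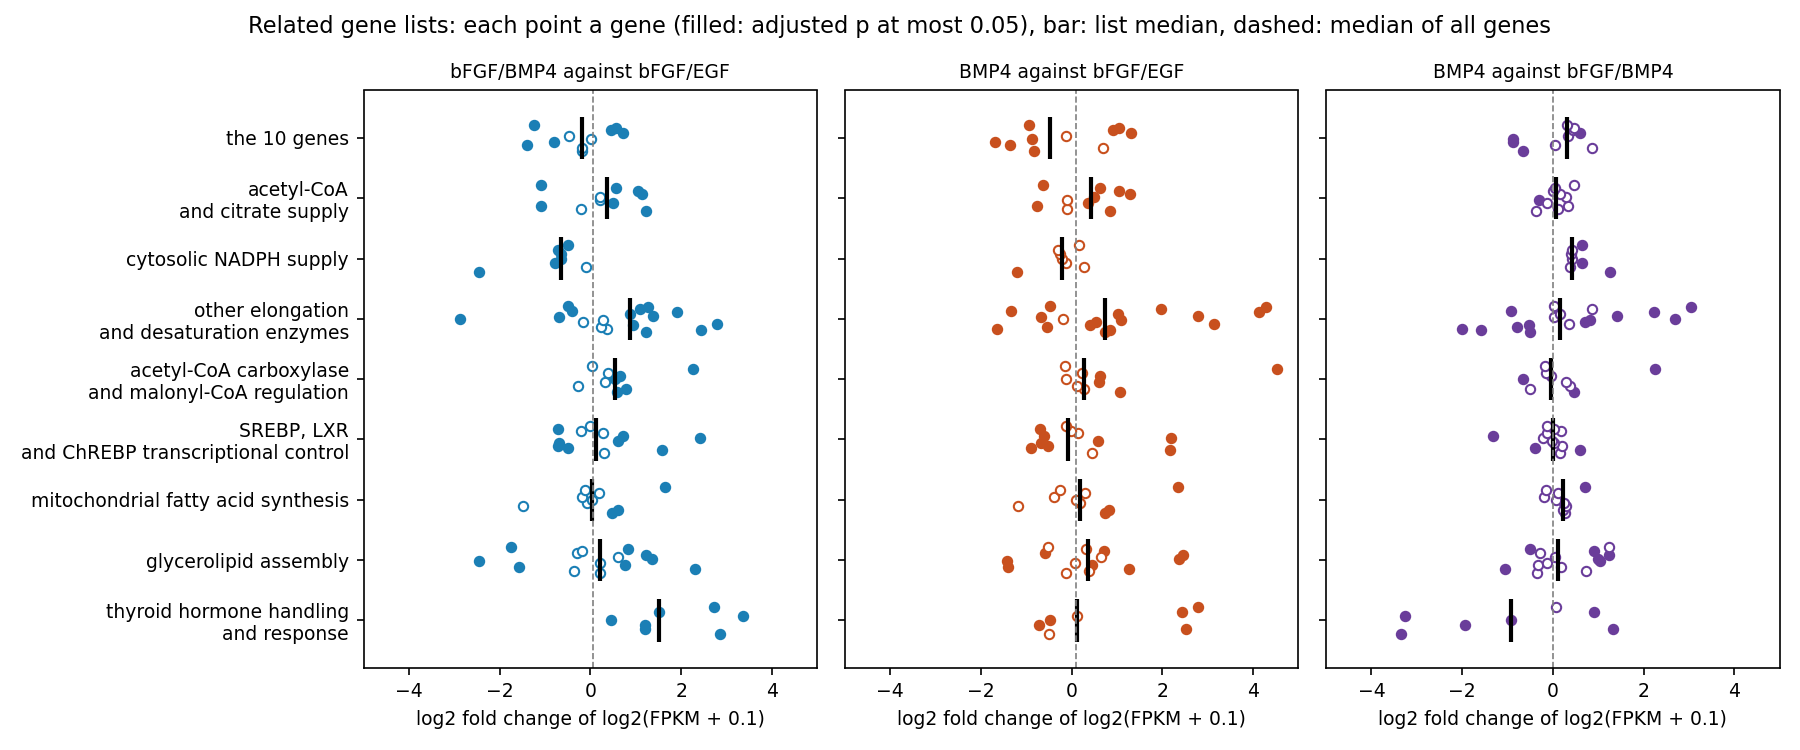
Log2 fold change on the scale log2(FPKM + 0.1) (horizontal axes) of the 10 genes and of the tested genes of 8 related lists (rows), a panel for each comparison; filled points passed the limma test, black bars are list medians and dashed lines the median of all 20207 genes tested. The 7 NADPH genes lie left of 0 in bFGF/BMP4 against bFGF/EGF and right of 0 in BMP4 against bFGF/BMP4, and Prkag2, at 4.52 in BMP4 against bFGF/EGF, is the far right point of its row.

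Other cell types with a lipogenic program were looked for through their markers. Of 5 adipocyte markers (Adipoq, Plin1, Cidec, Fabp4 and Lep) the summed level was at most 0.144 FPKM in any library. Of the oligodendrocyte markers, Mbp was at most 0.321, Mog at most 0.115 and Mobp at most 0.0462 FPKM in any library. The summed level of 6 astrocyte markers was 57.5-79.0, 629-717 and 3556-4447 FPKM in bFGF/EGF, bFGF/BMP4 and BMP4. Gfap made up most of that sum in BMP4, and its members did not share an order: all 6 rose in both comparisons with bFGF/EGF, but from bFGF/BMP4 to BMP4 Gfap, Aqp4 and Aldoc rose, Slc1a2 (175 to 65.5 FPKM) and Gjb6 (2.96 to 0.238) fell, and S100b went from 55.1 to 40.1 without passing the limma test. The sum of 5 neuron markers was 72.3-88.0, 47.4-53.2 and 142-213 FPKM, with Tubb3 at means of 20.3, 17.0 and 145. In BMP4 against bFGF/BMP4 Tubb3, Dcx and Snap25 were called higher and Rbfox3 lower, and Map2 fell in both comparisons with bFGF/EGF. The 4 ependymal markers summed to 6.14-10.9, 9.48-10.4 and 52.3-61.9 FPKM, nearly all from Foxj1. Ccdc153 was at most 0.849 FPKM, Dnah11 at most 0.0596, and Tmem212 at 0 in all 9 libraries. The 5 oligodendrocyte precursor markers summed to 1563-2263, 1313-1796 and 216-423 FPKM, nearly all from Olig1 and Olig2. Pdgfra was at most 0.852 FPKM, Sox10 at most 0.912 and Cspg4 at most 14.8. Microglia markers summed to 0.411-0.876, 0.412-0.540 and 1.49-1.74 FPKM, and endothelial and mural markers to 0.150-0.276, 1.66-2.53 and 3.75-5.41. Tmem119 of the former and Kdr of the latter were called higher in all 3 comparisons. The microglia marker P2ry12 was called lower in both comparisons with bFGF/EGF, with means of 0.561, 0.153 and 0.225 FPKM. Aif1 was at most 0.111, Cx3cr1 at most 0.0553 and Csf1r at most 0.0320 FPKM in any library. The endothelial marker Cldn5 was at 0 in all 9 libraries. The part of these cell types in the levels of the 10 genes was not tested.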

How the data were processed

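RNA-seq was measured in 9 libraries of SVZ NSCs, 3 each of bFGF/EGF (day 0), bFGF/BMP4 (day 6) and BMP4 (day 6). According to the submitters' processing notes, reads were trimmed with fastp 0.19.7, aligned to mm39 with HISAT2 2.0.5 and counted per gene with featureCounts 1.5.0-p3. The authors deposited the result as FPKM, normalised to transcript length and mapped fragments; the annotation release, the program behind the FPKM and the strand setting are not given in the sources used here.

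Gene names and GRCm39 coordinates came from GENCODE vM39, which held 54749 of the 55704 IDs. All 30860 genes above 0 had FPKM values that were whole multiples of a step, within 0.02 fragments, which gave 15895636 to 17424346 fragments a library. For 3033 low genes the number was settled by the annotated exon length. The length implied by the values matched that of GENCODE vM39 for 9.36% of genes over 100 fragments. The limma-voom fits used these recovered numbers, and the number of fragments limits the precision of low genes.

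Since FPKM are not counts, the DESeq2 test of the study was not used. limma 3.58.1 (R 4.3.3), with a mean-variance trend, was fitted to log2(FPKM + 0.1) of the 20207 genes with a mean of at least 0.1 FPKM in all 9 libraries together, so that the groups share an estimate of the spread, with Benjamini-Hochberg adjustment. A fold change on this scale understates that of low genes. Calls used the study's threshold, an adjusted p of at most 0.05 and 2-fold. Shares of gene pairs were compared by exact two-sided permutation tests (scipy 1.17.1). Each choice was also changed in turn: a pseudocount of 1, all genes without a filter, a mean of at least 1 FPKM, TPM and median-ratio scaling, a fit of only the groups compared, limma-voom on fragment numbers, the replicate number as a block, and leaving out each library.

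Named are the 10 genes, paired genes, 4 markers with further markers where a marker list was mixed, and the 5 genes most like Fasn and Thrsp. In each related list and comparison the 2 called genes of largest log2 change with a mean of at least 1 FPKM are also named. Slc25a1 and Acss2 were named outside this rule. A gene of the acetyl-CoA list and part of the oligodendrocyte markers, with the sum of the latter, are not reported here. The 10 genes and the lists were chosen with earlier results of these data known. Promoter windows came from RefSeq (GRCm38.p6), matched by symbol. The main limma fit was tested on simulated data in which far fewer genes changed than in these libraries. The other procedures were not tested in that way.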

Additional observations from a re-analysis of the deposited data

How the results depend on the processing

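Under 507 alternative fits of the 10 genes in the 3 comparisons, 462 log2 fold changes kept their direction and side of the test, 29 lost the test, 9 gained it and 7 changed sign, all 7 of differences near 0. Fasn in bFGF/BMP4 against bFGF/EGF changed sign with median-ratio scaling (-0.0152), with limma-voom (-0.10) and without bFGF/EGF replicate 3 (-0.0708) or bFGF/BMP4 replicate 2 (-0.037), in a range of -0.0708 to 0.0841 over the left-out libraries. Acly in BMP4 against bFGF/BMP4 did so with TPM scaling (-0.0262) and without bFGF/BMP4 replicate 1 (-0.0154) or BMP4 replicate 3 (-0.0145), in a range of -0.0154 to 0.0903. The share of Acaca in bFGF/BMP4 against bFGF/EGF turned to -0.0432, -0.0649 and -0.177 percentage points without bFGF/EGF replicate 1 or 2 or bFGF/BMP4 replicate 3 (-0.177 to 0.427 over all), and the share of Thrsp in BMP4 against bFGF/BMP4 to 0.173 without BMP4 replicate 1 (-1.74 to 0.173). When each library was left out in turn, 3 to 6 of the 10 genes passed the test in bFGF/BMP4 against bFGF/EGF (3 without bFGF/EGF replicate 1 or 3), 8 in BMP4 against bFGF/EGF in each case, and 2 to 4 in BMP4 against bFGF/BMP4 (2 without bFGF/BMP4 replicate 2). Called in that last comparison were 0 to 1, the 1 being Elovl6 without BMP4 replicate 3, and 1, Acacb, with limma-voom. With a mean of at least 1 FPKM Acacb was not tested. Over all genes, 6174, 7400 and 2738 were called in bFGF/BMP4 against bFGF/EGF, BMP4 against bFGF/EGF and BMP4 against bFGF/BMP4, against 3544, 4364 and 1449 with a pseudocount of 1 and 1800 in the last with a mean of at least 1 FPKM, where fewer genes were tested; limma-voom called 6574, 7711 and 2989. The cause of the other changes was not tested.

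Deviations from the group mean were correlated between libraries of different groups. The 9 same-numbered pairs gave -0.084 to 0.125, with 1 above 0.1. The 18 pairs with different numbers gave -0.154 to 0.081, with 0 above 0.1. Whether the replicate numbers of the labels pair the libraries was not tested. With a replicate block 6127, 7383 and 2612 genes were called; of the 10 genes, Me1 passed the test in bFGF/BMP4 against bFGF/EGF (adjusted p = 0.0448), Srebf1 in BMP4 against bFGF/BMP4 (adjusted p = 0.0495), and Scd2 lost it in bFGF/BMP4 against bFGF/EGF (adjusted p = 0.0578).

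Calls in the related lists moved as follows, and the cause was not tested. In bFGF/BMP4 against bFGF/EGF, acetyl-CoA and citrate supply went from 5 to 3 without bFGF/EGF replicate 2 (3 to 5 over the left-out libraries), elongation and desaturation from 8 to 5 with a pseudocount of 1, and mitochondrial synthesis from 1 to 2 with TPM scaling, with limma-voom, and without bFGF/EGF replicate 1, bFGF/BMP4 replicate 1 or BMP4 replicate 2 (1 to 2). In BMP4 against bFGF/EGF, acetyl-CoA supply went from 2 to 1 with TPM scaling, limma-voom or without BMP4 replicate 2 (1 to 3, 3 without bFGF/EGF replicate 1), carboxylase regulation from 2 to 1 in the same settings and without bFGF/EGF replicate 3 (1 to 2), and mitochondrial synthesis from 1 to 2 without bFGF/EGF replicate 1 (1 to 2). In BMP4 against bFGF/BMP4, glycerolipid assembly went from 3 to 1 with a pseudocount of 1, with TPM scaling and without bFGF/BMP4 replicate 2 or 3, and to 5 without bFGF/BMP4 replicate 1 (1 to 5).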

Other observations

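The mitochondrion holds a separate route of fatty acid synthesis, which feeds the making of lipoic acid. Of its 9 genes, 3 rose and 0 fell in bFGF/BMP4 against bFGF/EGF, 3 rose and 0 fell in BMP4 against bFGF/EGF, and 1 rose and 0 fell in BMP4 against bFGF/BMP4, with median log2 differences of 0.03, 0.18 and 0.22. The share of all genes past the test was higher, at 48.6%, 54.9% and 21.1%. Oxsm, its condensing enzyme, was at 0.841, 0.766 and 1.41 FPKM in bFGF/EGF, 3.38, 3.30 and 3.03 under bFGF/BMP4, and 6.12, 5.03 and 4.89 under BMP4. The 3 groups were apart, and Oxsm rose in each comparison (log2 fold changes 1.64, 2.34 and 0.70, limma adjusted p = 0.000174, 1.16e-05 and 0.0465). Of 14 genes that build glycerolipids from fatty acids, 5 rose and 3 fell, 5 rose and 3 fell, and 4 rose and 2 fell in the same order of comparisons, against the same shares of all genes. Gpam, the mitochondrial glycerol phosphate acyltransferase, was at 18.5 ± 2.63 FPKM (SD, n = 3) in bFGF/EGF, 47.7 ± 6.64 under bFGF/BMP4 and 95.1 ± 8.39 under BMP4, the order of Scd1 and Scd2. Agpat3, the next acyltransferase of that route, was at 29.4 ± 3.55, 146 ± 3.46 and 70.5 ± 5.35. Dgat2, which makes triglyceride, was at 10.1 ± 1.37, 1.75 ± 0.287 and 3.67 ± 0.170, all 6 libraries of the BMP4 groups below those of bFGF/EGF.

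Thrsp is known as a thyroid hormone responsive gene, and 7 of 8 genes of thyroid hormone handling and response were tested, Dio3 being under the filter. While Thrsp fell in bFGF/BMP4 against bFGF/EGF, 7 of these 7 genes rose there, with a median log2 difference of 1.51; in BMP4 against bFGF/EGF 3 rose and 2 fell, and in BMP4 against bFGF/BMP4 2 rose and 4 fell. Of all genes, 25.0%, 29.6% and 12.2% rose and 23.6%, 25.3% and 8.89% fell. Dio2, the deiodinase that activates thyroid hormone, was at 8.15, 3.78 and 8.62 FPKM in bFGF/EGF, 57.5, 40.1 and 45.5 under bFGF/BMP4, and 3.96, 3.77 and 6.18 under BMP4. It was high in the bFGF/BMP4 libraries alone, with log2 fold changes of 2.85 against bFGF/EGF and -3.36 in BMP4 against bFGF/BMP4 (limma adjusted p = 4.62e-05 and 5.24e-05). Klf9, a target of the hormone receptors, was likewise highest in bFGF/BMP4, at 20.8 ± 2.35 FPKM (SD, n = 3) against 8.99 ± 1.53 in bFGF/EGF and 5.35 ± 0.210 in BMP4. The receptor gene Thrb was at 0.705 ± 0.214, 5.09 ± 0.263 and 5.35 ± 0.796, and Hr, a corepressor gene of the receptors, at 0.506 ± 0.243, 1.22 ± 0.121 and 3.31 ± 1.07. The hormone itself was not measured.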
